A study of Mus musculus with 6 samples.

Results

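Selenium-enriched phycocyanin (SePC) was compared with plain phycocyanin (PC) as the photosensitizer of photodynamic therapy in mouse tumors, with both groups irradiated. The comparison used the 2 PC-La samples and the 2 SePC-La samples, 4 of the 6 tumor samples sequenced. Of 21899 genes listed, 16430 were above 0 in at least 1 of the 4 samples, and 10831 genes whose mean over the 4 reached 1 FPKM were tested. FPKM counts the fragments of a gene relative to the length of its exons and to all fragments counted in the sample. The tumors were grown in male C57BL/6 mice from subcutaneously injected LLC-luc cells, a luciferase-labelled line of Lewis lung carcinoma. Per the labels, PC or SePC was injected into the tumor every 5 days, and a 620 nm laser was applied for 10 min, 4 h after injection. The study's methods differ from the labels in the wavelength, the interval and the site of injection, which they place outside the tumor. The remaining group, Laser, was irradiated without a photosensitizer, and its values are given as the control level. Neither the labels nor the methods state that the 2 samples of a group came from separate mice, so the p-values measure the spread between these samples, which may be technical.

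Phycocyanin is a blue light-harvesting protein of cyanobacteria such as Spirulina. Its bilin pigments absorb orange-red light and pass the energy to oxygen, which yields reactive oxygen species in the irradiated tissue. SePC was purified from Spirulina grown with selenium. Mammalian cells use selenium as selenocysteine, an amino acid built into selenoproteins such as thioredoxin reductases and glutathione peroxidases, the latter of which remove peroxides. Photodynamic damage of a tumor is known to draw in neutrophils, to close vessels and to lower oxygen. The study measured more selenium in SePC than in PC, which also held some, and less zinc, chromium and manganese. The comparison addresses how the tumor transcriptome under irradiation differs between these photosensitizers. Differences due to selenium and to the other elements cannot be told apart.

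The recovered depth of the 4 samples lay between 14447794 and 17458767 reads. The correlation of log2 values across genes, a description since genes are not independent, was 0.9915 within PC-La and 0.9718 within SePC-La. SePC-La replicate 1 stood further from the PC-La samples (0.9299 and 0.9363) than SePC-La replicate 2 (0.9636 and 0.9647). Of the genes called lower in SePC-La, 271 of 290 were lower in SePC-La replicate 1 than in replicate 2, so the size of many decreases rests on replicate 1. The tissue label, lung cancer, was checked against markers. The lung epithelial genes Nkx2-1, Scgb1a1, Scgb3a2 and Sftpd were at 0 in all 4 samples, and Epcam reached 0.104 FPKM at most. Vim, the intermediate filament of mesenchymal cells, stood between 742 and 1000 FPKM, Krt18, an epithelial keratin, between 110 and 166, and Hmga2, a chromatin gene of embryonic and tumor cells, between 103 and 138.

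The direction of the differences also moved with exon length. The genes called higher in SePC-La had a median exon length of 2090 bases, against 4557 for the genes called lower and 4448 for the 10823 tested genes with an exon length. Of the 161 genes called higher, 105 fell in the shortest of 4 equal bins of exon length and 4 in the longest, whereas the lower genes were spread as 71, 69, 77 and 72 from the shortest to the longest bin. The median log2 difference was 0.04 in the shortest bin and -0.18 in the longest. A trend also lay within SePC-La, where replicate 2 minus replicate 1 was 0.17 in the shortest bin and -0.04 in the longest. Within PC-La the same medians were -0.04 and 0.03. The gene lists below also differed in median exon length. It was 790 bases for erythroid, 1083 for platelet, 1021 for CC chemokine and 2068 for CXC chemokine genes. For MHC class II it was 2256, for glycolysis 4713, for TGF-beta 6462 and for collagen genes 7464. The shares over all genes given beside the lists are not matched for length. The part of length or RNA quality in the differences was not tested.

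The log2 difference was SePC-La minus PC-La on log2(FPKM + 1). A gene was called when it was beyond 1 in either direction with an unadjusted p under 0.05. The study used the same cut-offs, but on fold changes and p-values from DESeq. In limma's fit of the 4 samples 451 genes were called, 4.16% of those tested, with 161 higher in SePC-La (1.49%) and 290 lower (2.68%). All 451 had groups that did not overlap, which the call criterion nearly forces with 2 samples in each group. With median-ratio scaling the called genes were 195 higher and 237 lower, and with quantile normalization 204 higher and 215 lower. A Benjamini-Hochberg adjusted p under 0.05 was reached by 671 genes (6.2%), 295 higher and 376 lower, and 264 of the called genes were among them. This count was 0 when the Laser samples entered the fit, where the smallest adjusted p from limma was 0.0629, and 34 of the genes named by rule lost their calls in that fit, among them Dcn, Lum, Col3a1 and Col6a3. It was also 0 without PC-La replicate 2 and 5 without PC-La replicate 1, while it was 2188 without SePC-La replicate 1. Both SePC-La samples lay above both PC-La samples for 26.0% of the tested genes and below them for 39.6%. The median log2 difference over all tested genes was -0.07.

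**Figure D1:**
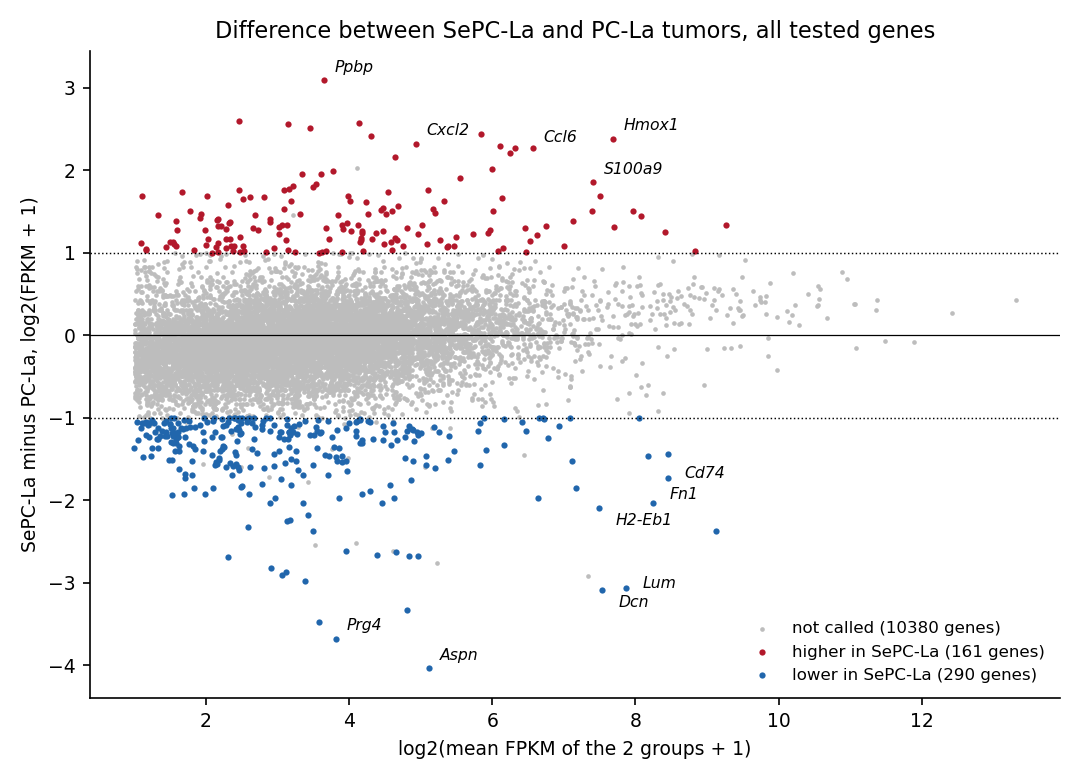
Difference between SePC-La and PC-La on log2(FPKM + 1), with 2 samples in each group, against the mean level of the 10831 tested genes. Red points are the 161 genes called higher in SePC-La, blue points the 290 called lower, and dotted lines mark a log2 difference of 1 in either direction; the lowest gene, Aspn, is at -4.04 and the highest, Ppbp, at 3.09.

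Genes of inflammatory recruitment and activated myeloid cells, of hypoxia, and of the ATF4 stress response were among those higher in SePC-La. Genes of MHC class II presentation, of fibroblast matrix and some macrophage markers were among those lower. Selenoprotein genes centred on no difference, with a median of -0.00 over 19 genes.

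**Figure D2:**
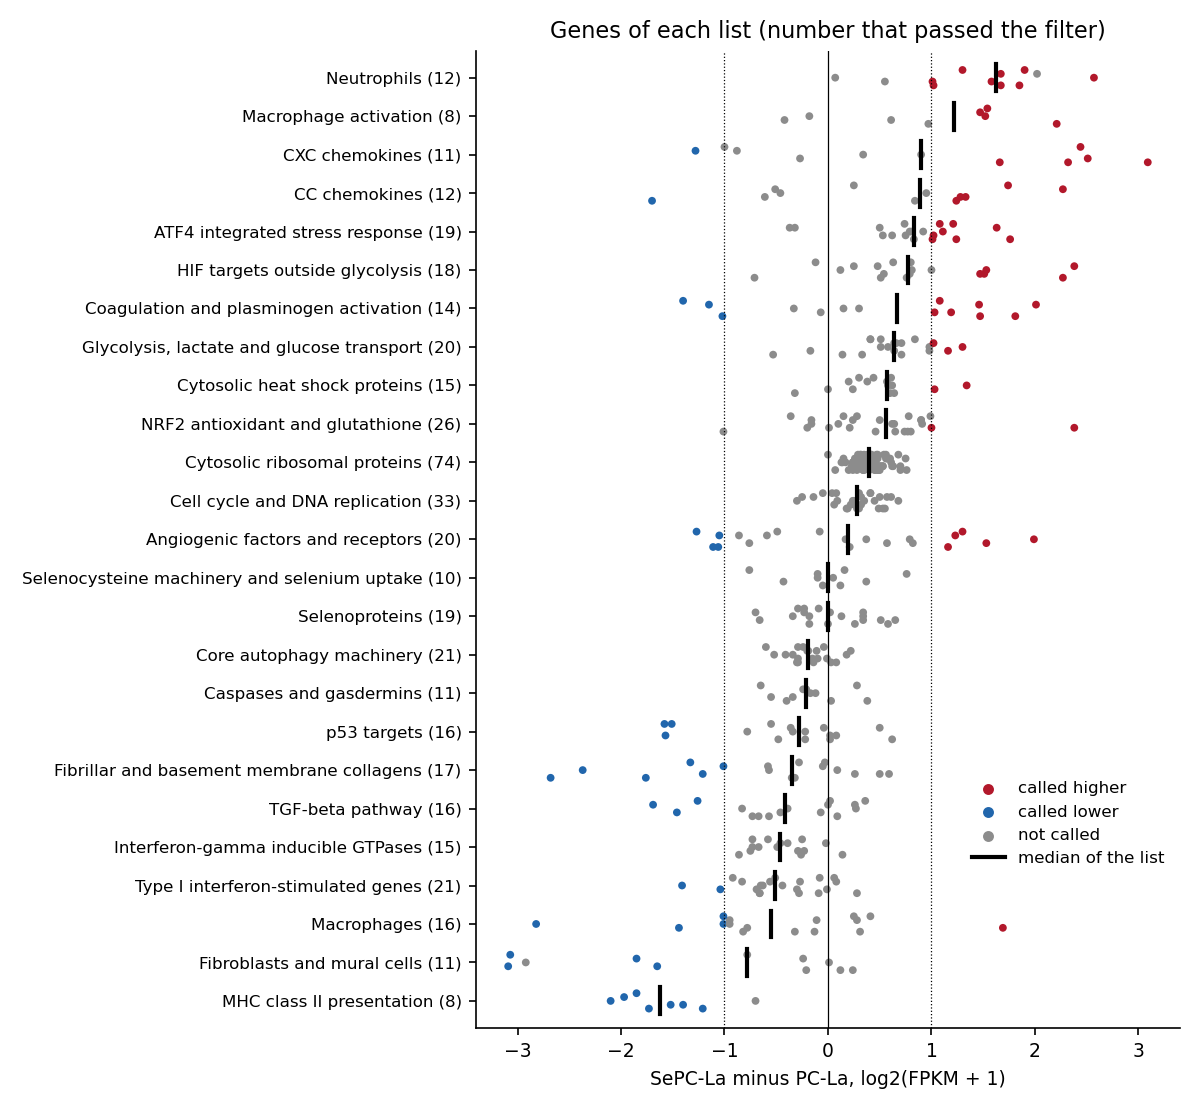
Log2 difference of every gene that passed the filter in 25 gene lists, with the number of genes in parentheses. Each point is a gene, colored where it was called, and black bars are list medians, which, in the lists drawn, run from -1.62 for MHC class II presentation to 1.62 for neutrophil genes.

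Chemokines were compared first, since they are the signals that attract leukocytes. The CXC chemokines Cxcl1, Cxcl2 and Cxcl3 bind the receptor CXCR2 on neutrophils. Cxcl2 had 11.4 and 7.27 FPKM in PC-La against 48.7 and 51 in SePC-La, with 31.6 and 6.74 in Laser. Both SePC-La samples lay above both PC-La samples, and the log2 difference was 2.32 (standard error, SE, 0.21, limma adjusted p = 0.0187). Cxcl3 had 2.65 and 1.95 FPKM in PC-La against 18.3 and 17.2 in SePC-La, with 15.3 and 2.19 in Laser, a log2 difference of 2.51 (SE 0.15, limma adjusted p = 0.00901). Cxcl1 had 35 and 29.1 FPKM in PC-La against 80.4 and 131 in SePC-La, with 55.6 and 17.4 in Laser, a log2 difference of 1.66 (SE 0.25, limma adjusted p = 0.0368). For each of these genes PC-La and SePC-La did not overlap, and Laser replicate 1 lay between them while Laser replicate 2 was at or below the PC-La level.

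The promoters of these 3 neighbouring genes on mouse chromosome 5 are shown because all of them hold the NF-κB consensus, the site bound by the NF-κB factors that switch on inflammatory genes. The 120 bases before the start of each gene are given from RefSeq (GRCm38.p6), with the bases matched by the consensus in capitals.
Cxcl1, chr5:90891125-90891244, plus strand: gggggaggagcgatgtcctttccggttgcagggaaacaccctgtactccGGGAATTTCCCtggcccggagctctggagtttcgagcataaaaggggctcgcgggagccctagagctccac
Cxcl2, chr5:90903779-90903898, plus strand: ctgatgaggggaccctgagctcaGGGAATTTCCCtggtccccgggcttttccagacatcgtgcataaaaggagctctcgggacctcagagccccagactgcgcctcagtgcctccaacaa
Cxcl3, chr5:90785981-90786100, plus strand: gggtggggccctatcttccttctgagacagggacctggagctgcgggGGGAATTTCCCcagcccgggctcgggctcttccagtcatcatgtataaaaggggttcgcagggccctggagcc
The same 11 letters lay 71, 97 and 73 bases before the starts of Cxcl1, Cxcl2 and Cxcl3, and each held 2 overlapping matches, 1 base apart. Searched on both strands in the 250 bases before the start, the consensus was found in 10.6% of the 8696 tested genes with a promoter, in 4 of 9 CXC chemokines, and in 14.2% of the promoters of genes called higher and 14.4% of those called lower. A match is a description of the sequence and not a binding site.

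Among the CC chemokines, Ccl6 and Ccl9, made by myeloid cells, and Ccl3, Ccl4 and Ccl24 were called higher. Ccl24, which the study describes as an attractant of eosinophils, had 0.741 and 0.206 FPKM in PC-La against 4.38 and 3.36 in SePC-La. Its log2 difference was 1.74 (SE 0.23, limma adjusted p = 0.0309). Ccl6 had 31.9 and 31 FPKM in PC-La against 164 and 148 in SePC-La, with 79.9 and 242 in Laser, a log2 difference of 2.27 (SE 0.11, limma adjusted p = 0.00767). The SePC-La samples were far above PC-La and within the range of Laser. In contrast, Ccl11, which like Ccl24 attracts eosinophils, had 21.5 and 16.4 FPKM in PC-La against 3.97 and 6.46 in SePC-La, a log2 difference of -1.70 (SE 0.23, limma adjusted p = 0.033). Cxcl14 was also lower, at -1.28, a call lost without SePC-La replicate 1 (-0.95). Cxcl9, which attracts T cells and is induced by interferon-γ, had 77.8 and 129 FPKM in PC-La against 44.6 and 65.5 in SePC-La, and was not called. Of 11 CXC chemokines that passed the filter, 5 were higher and 1 lower, and of 12 CC chemokines 5 were higher and 1 lower. The 5 higher CXC chemokines were Cxcl1, Cxcl2, Cxcl3 and the platelet chemokines Ppbp and Pf4. The shares over all genes were 1.49% higher and 2.68% lower. The list medians were 0.90 and 0.89 beside -0.07 for all genes. With each sample left out the higher genes numbered 5 to 7 and 4 to 7 in these lists. Without PC-La replicate 1, 3 CXC chemokines were lower, and the call of Ccl3 was lost at 0.92.

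The NF-κB genes themselves moved less. Nfkbia, the feedback inhibitor of NF-κB, had 58.4 and 62.5 FPKM in PC-La against 134 and 174 in SePC-La, with 102 and 57.5 in Laser, a log2 difference of 1.32 (SE 0.15, limma adjusted p = 0.0259). It was the only member called of the 12 NF-κB subunits and inhibitors, beside 1.49% of all genes called higher. The list median was 0.31. Rela stood at 38.1 and 33.3 FPKM in PC-La against 43.8 and 38.9 in SePC-La, and Nfkb1 differed by 0.33 (SE 0.14, limma adjusted p = 0.174). Among the interleukin-1 genes, the antagonists were called higher, Il1rn (the receptor antagonist) by 1.31 and Il1r2 (the decoy receptor) by 1.3, while Il1b had 51.5 and 69.6 FPKM in PC-La against 107 and 102 in SePC-La and was not called (0.79). Without SePC-La replicate 2 Il1r2 lost its call at 1.00. Of the growth and survival signals, Osm, an interleukin-6 family cytokine of myeloid cells, was higher by 1.33, and Tnfrsf9, the costimulatory receptor 4-1BB, by 1.74 (SE 0.26, limma adjusted p = 0.0381). No member of the 12 Toll-like receptors was called. Of 16 immediate early genes, Ier3 (1.68), Myc (1.51) and Fosl1 (1.17) were higher and Fosb (-1.60) was lower, beside 1.49% and 2.68% of all genes. The call of Fosb was lost with the Laser samples in the fit.

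Neutrophil genes had a median of 1.62, beside -0.07 for all genes. Of the 12 that passed the filter, 9 were called higher, beside 1.49% of all genes. In 11 the groups did not overlap, with SePC-La above, beside 26.0% of all genes. S100a8, a calcium-binding protein stored by neutrophils, had 25.6 and 13.2 FPKM in PC-La against 61.8 and 82.7 in SePC-La, with 22.6 and 9.39 in Laser. Its log2 difference was 1.90 (SE 0.32, limma adjusted p = 0.0414), and both SePC-La samples were above every PC-La and Laser sample. Mmp8, the neutrophil collagenase, had 1.5 and 1.46 FPKM in PC-La against 6.96 and 5.9 in SePC-La, with 3.57 and 7.85 in Laser, a log2 difference of 1.58 (SE 0.14, limma adjusted p = 0.0187). The SePC-La samples were above PC-La but within the range of Laser. Lcn2 (1.67), Hdc (1.67), G0s2 (2.57) and S100a9 (1.85) were higher as well, and the receptors Csf3r (1.02) and Cxcr2 (1.01) lay close to the threshold. Csf3r lost its call without PC-La replicate 2 (0.98) or SePC-La replicate 1 (0.85), Cxcr2 without PC-La replicate 2 (0.97) or SePC-La replicate 2 (0.97), and S100a9 without SePC-La replicate 2 (1.65, with an unadjusted p above 0.05). Between 5 and 10 members were called with a sample left out. The 5 without SePC-La replicate 2 were Lcn2, Mmp8, Hdc, G0s2 and Csf3r, so S100a8 was not called there. G0s2, S100a9, Csf3r and Cxcr2 lost their calls with the Laser samples in the fit. The granule genes of immature neutrophils, Camp, Ltf and Ngp, and the surface marker Ly6g reached 1.73 FPKM at most. The summed level of the list was 179 and 109 FPKM in PC-La, 415 and 539 in SePC-La and 203 and 53.3 in Laser. In bulk tumor RNA, more cells of a type and more RNA per cell cannot be told apart.

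Some receptors and enzymes of activated myeloid cells were higher too. Slpi, an inhibitor of neutrophil elastase, had 1.63 and 1.53 FPKM in PC-La against 13.6 and 14.8 in SePC-La, with 7.06 and 2.21 in Laser. It had the smallest p of all genes, with a log2 difference of 2.56 (SE 0.12, limma adjusted p = 0.00767). Clec4d, a C-type lectin receptor of myeloid cells, had 8.4 and 7.94 FPKM in PC-La against 39 and 40.9 in SePC-La, with 22.3 and 36.1 in Laser, a log2 difference of 2.16 (SE 0.11, limma adjusted p = 0.00767). Arg1, arginase of alternatively activated and suppressive myeloid cells, had 23.8 and 28 FPKM in PC-La against 141 and 107 in SePC-La, with 71.2 and 204 in Laser, a log2 difference of 2.21 (SE 0.17, limma adjusted p = 0.0147). These genes shared low and close PC-La values. Of the 10 myeloid C-type lectins that passed the filter, Clec4d and Clec4e (1.37) were higher and Clec12a (-1.02) lower, beside 1.49% and 2.68% of all genes. The list median was 0.02. Nos2, the inducible nitric oxide synthase that marks classical activation, was higher as well, by 1.54 (SE 0.21, limma adjusted p = 0.0313), a call lost with the Laser samples in the fit. Of the 8 macrophage activation genes that passed the filter, 4 were higher and 0 lower, beside 1.49% and 2.68% of all genes, with a median of 1.22. Of these, Gpnmb (49.3 FPKM in SePC-La replicate 1 and 18.1 in replicate 2) lost its call without SePC-La replicate 1 (0.77) or without either PC-La sample. Acod1, which makes itaconate in activated macrophages, was higher by 1.68, and Marco, a scavenger receptor, had 0 and 0.0347 FPKM in PC-La against 2.23 and 2.35 in SePC-La.

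Targets of hypoxia-inducible factors (HIF) were compared next. HIF is stabilized when oxygen is low and raises glucose uptake, glycolysis and vessel growth. Of the 18 HIF targets outside glycolysis that passed the filter, 5 were called higher, beside 1.49% of all genes, and 0 lower. Both SePC-La samples were above both PC-La samples in 15, beside 26.0% of all genes, and the median was 0.77. Adm, the vasodilator adrenomedullin, had 31.7 and 21 FPKM in PC-La against 154 and 107 in SePC-La, with 67.6 and 30 in Laser, a log2 difference of 2.27 (SE 0.25, limma adjusted p = 0.0253). Vegfa, the main vessel growth factor, had 18.9 and 16.2 FPKM in PC-La against 60.1 and 45.6 in SePC-La, with 32.8 and 15.5 in Laser, a log2 difference of 1.53 (SE 0.17, limma adjusted p = 0.0253). Ndrg1 (1.51) and Hmox1 (2.38) were among the other members called. Both SePC-La samples were above all 4 other tumors for Adm, Vegfa and Ndrg1. Outside the list, Hilpda, a lipid droplet protein induced by hypoxia, had 24.7 and 19.9 FPKM in PC-La against 130 and 97.1 in SePC-La, a log2 difference of 2.29 (SE 0.18, limma adjusted p = 0.0164). Not every target moved this way. Plod2, which hydroxylates collagen lysines, had 75.9 and 77.3 FPKM in PC-La against 41.6 and 51.6 in SePC-La, and Kdm3a, P4ha1 and Bnip3l differed by between -0.12 and 0.25.

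Genes of glycolysis, lactate export and glucose transport held 3 calls. Of 20, 3 were called higher, beside 1.49% of all genes, and 17 had non-overlapping groups with SePC-La above, beside 26.0%, with a median of 0.64. Slc2a1, the glucose transporter GLUT1, had 51.4 and 46.6 FPKM in PC-La against 141 and 106 in SePC-La, with 69.2 and 48.2 in Laser, a log2 difference of 1.3 (SE 0.16, limma adjusted p = 0.0298). Pgk1, phosphoglycerate kinase, had 300 and 301 FPKM in PC-La against 686 and 540 in SePC-La, with 331 and 356 in Laser, a log2 difference of 1.02 (SE 0.14, limma adjusted p = 0.0331). Slc16a3, the lactate exporter MCT4, had 6.85 and 7.39 FPKM in PC-La against 18.6 and 15.8 in SePC-La, with 8.85 and 8.20 in Laser, a log2 difference of 1.16 (SE 0.13, limma adjusted p = 0.0253). For each of these genes SePC-La stood above all 4 other tumors, and SePC-La replicate 1 was the higher of the pair. Without that sample Pgk1 lost its call at 0.84, as it did with quantile normalization at 0.78. Eno1 (0.98), Ldha (0.58) and Pkm (0.51) had an adjusted p under 0.05 without reaching the fold threshold. The muscle isoform Pfkm went the other way, with 18.7 and 14.6 FPKM in PC-La against 9.30 and 13.4 in SePC-La. The 44 nuclear genes of the respiratory chain and the 17 of the tricarboxylic acid cycle held no call, with medians of 0.19 and 0.18.

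The core of the hypoxia response element, ACGTG, was searched on both strands in the 250 bases before each start. It was found in 25.7% of the tested genes with a promoter, in 10 of 13 HIF targets outside glycolysis and in 11 of 19 glycolysis genes, but in 28.3% of the promoters of all genes called higher. The core is also part of the E box CACGTG. The promoters of the 3 called genes of the glycolysis list are shown, with the core in capitals, from RefSeq (GRCm38.p6).
Slc2a1, chr4:119108625-119108744, plus strand: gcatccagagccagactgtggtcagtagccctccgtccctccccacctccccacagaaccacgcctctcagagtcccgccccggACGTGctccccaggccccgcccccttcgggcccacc
Slc16a3, chr11:120948947-120949066, plus strand: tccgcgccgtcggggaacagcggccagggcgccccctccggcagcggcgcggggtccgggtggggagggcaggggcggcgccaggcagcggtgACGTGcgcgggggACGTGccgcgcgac
Pgk1, chrX:106186940-106187099, plus strand: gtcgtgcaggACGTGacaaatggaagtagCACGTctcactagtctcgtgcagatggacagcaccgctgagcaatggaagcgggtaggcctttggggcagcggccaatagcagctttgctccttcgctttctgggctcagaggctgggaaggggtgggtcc
Slc2a1 held 1 match, 36 bases before its start, and Slc16a3 held 2, at 27 and 14 bases. Pgk1 held 2, at 150 and 131 bases, the second on the opposite strand.

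The integrated stress response, in which ATF4 raises amino acid synthesis and transport when translation is curbed, held 8 calls, all higher in SePC-La. Of 19 genes of this list that passed the filter, 8 were called higher, beside 1.49% of all genes, 0 lower, and 16 had non-overlapping groups with SePC-La above, beside 26.0%, with a median of 0.83. Trib3, a pseudokinase induced by ATF4, had 5.84 and 7.64 FPKM in PC-La against 29.6 and 17.4 in SePC-La, with 7.01 and 13.6 in Laser, a log2 difference of 1.63 (SE 0.27, limma adjusted p = 0.0412). Phgdh, the first enzyme of serine synthesis, had 74.5 and 88.1 FPKM in PC-La against 183 and 164 in SePC-La, with 90.1 and 134 in Laser, a log2 difference of 1.08 (SE 0.13, limma adjusted p = 0.0284). Chac1, a glutathione-degrading enzyme, had 1.29 and 1.47 FPKM in PC-La against 10.9 and 4.44 in SePC-La. SePC-La replicate 1 was above replicate 2 for Trib3, Phgdh and Chac1, and likewise for Asns (1.24), Shmt2 (1.21), Mthfd2 (1.11) and Psat1 (1.02). Phgdh lost its call without PC-La replicate 1 (0.97) and with quantile normalization. Without SePC-La replicate 1, 4 members were called, with Asns and Shmt2 both at 0.88, and without SePC-La replicate 2, 10 were. Atf4 itself had 90.2 and 122 FPKM in PC-La against 201 and 170 in SePC-La (0.81, limma adjusted p = 0.0545). The 19 endoplasmic reticulum chaperones held no call, and 9 of them had SePC-La below PC-La without overlap, near the 39.6% of all genes, with a median of -0.18.

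Hmox1, the heme-degrading oxygenase induced by oxidative stress and by heme, had 83.4 and 50.4 FPKM in PC-La against 369 and 315 in SePC-La, with 265 and 117 in Laser. Its log2 difference was 2.38 (SE 0.25, limma adjusted p = 0.0253), and both SePC-La samples were above all other tumors. Of 26 genes of the NRF2 antioxidant response, Hmox1, also counted among the HIF targets above, and Gclm were called higher, beside 1.49% of all genes, and 0 lower. The median was 0.56, and 10 reached a limma adjusted p under 0.05, beside 6.2% of all genes. Gclm, a subunit of the enzyme that limits glutathione synthesis, had 6.79 and 7.05 FPKM in PC-La against 14.5 and 15.3 in SePC-La, a log2 difference of 1.00 that fell to 0.98 without PC-La replicate 1 and to 0.96 without SePC-La replicate 2, where the call was lost. The ferritin genes Fth1 (0.91) and Ftl1 (0.90), which store iron, and Sod2 (0.99), the mitochondrial superoxide dismutase, had an adjusted p under 0.05 below the fold threshold. Nqo1, a classical NRF2 target, had 9.85 and 9.98 FPKM in PC-La against 3.21 and 16.1 in SePC-La, where the SePC-La samples lay on either side. Tfrc, the transferrin receptor for iron uptake, had 36.7 and 46.7 FPKM in PC-La against 16.9 and 18.7 in SePC-La, with 18.6 and 53.4 in Laser, a log2 difference of -1.17 (SE 0.15, limma adjusted p = 0.0298). The metallothionein Mt1 was higher by 1.51. Of 15 cytosolic heat shock genes, Hspa1b (1.34) and Hspa1a (1.03) were called higher, beside 1.49% of all genes. Hspa1b was at 36.4 FPKM in SePC-La replicate 1 and 13.2 in replicate 2. Without SePC-La replicate 1, Hspa1b and Hspa1a were at 0.64 and 0.69 and were not called. They also lost their calls without PC-La replicate 1, with Hspa1a at 0.95.

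The clotting factor F10 was among the genes called higher, and the plasminogen activators were called lower. F10, coagulation factor X, had 2.76 and 3.55 FPKM in PC-La against 13.8 and 13.2 in SePC-La, with 7.06 and 8.67 in Laser, a log2 difference of 1.81 (SE 0.14, limma adjusted p = 0.0147). Thbs1, the platelet and matrix protein thrombospondin 1, had 21.1 and 27.2 FPKM in PC-La against 115 and 86.6 in SePC-La, with 76.5 and 53.2 in Laser, a log2 difference of 2.01 (SE 0.19, limma adjusted p = 0.0208). Both were above all 4 other tumors in SePC-La. Serpinb2 (1.08), an inhibitor of plasminogen activation, was higher, as was the urokinase receptor Plaur (1.19). The activators Plat (-1.40) and Plau (-1.02) were lower. Plat had 13.3 and 12.3 FPKM in PC-La against 3.16 and 5.55 in SePC-La, and Plau 115 and 168 against 55 and 83.5. In all, 7 of 14 genes were higher and 3 lower, beside 1.49% and 2.68% of all genes, with a median of 0.67. Plau lost its call without PC-La replicate 2 (-0.75) or SePC-La replicate 1 (-0.73), Serpinb2 without PC-La replicate 2 (0.99) or SePC-La replicate 2 (0.70), and a single member was lower without either of PC-La replicate 2 and SePC-La replicate 1.

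The platelet chemokines Ppbp and Pf4, already counted among the CXC chemokines above, had large differences. Ppbp had 1.36 and 1.91 FPKM in PC-La against 19 and 24.1 in SePC-La, with 15.4 and 6.70 in Laser, a log2 difference of 3.09 (SE 0.17, limma adjusted p = 0.0089), the highest of the called genes. Pf4 had 17.4 and 15.6 FPKM in PC-La against 72.4 and 121 in SePC-La, with 58.7 and 82.9 in Laser, a log2 difference of 2.44 (SE 0.25, limma adjusted p = 0.0253). In both genes the PC-La samples were the lowest of the 6 tumors. The other markers of the platelet list gave no such pattern. Itga2b, the platelet integrin, had 1.28 and 0.907 FPKM in PC-La against 0.546 and 0.756 in SePC-La, Clec1b had 1.45 and 1.37 against 0.448 and 0.92, Gp1bb was at 0, and Gp9, Gp1ba, Gp5, Treml1 and Tubb1 were at most 0.521 FPKM in the 4 samples. Hemoglobin genes were higher as well. Hbb-bs had 172 and 226 FPKM in PC-La against 395 and 562 in SePC-La, with 77 and 9.15 in Laser, a log2 difference of 1.25 (SE 0.21, limma adjusted p = 0.043), a call lost with the Laser samples in the fit. The hemoglobin transcripts mark red blood cells, whose summed list was 301 and 409 FPKM in PC-La against 631 and 952 in SePC-La. Of its 6 genes that passed the filter, 4 were called higher, all hemoglobin genes, beside 1.49% of all genes. Hbb-bt (1.22) lost its call without PC-La replicate 1 (0.78), SePC-La replicate 1 (1.76) or SePC-La replicate 2 (0.68). Hba-a1 and Hbb-bt also lost their calls with the Laser samples in the fit. Tfrc (-1.17) was called lower and Alas2 (0.67) was not called. The part of blood in the samples in the other differences was not tested.

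Among vessel growth genes, 5 of 20 were higher and 4 lower, beside 1.49% and 2.68% of all genes, with a median of 0.19. Vegfa, Angptl4 (1.99), Pgf (1.3), Apln (1.23) and Esm1 (1.16) were higher, and Vegfd (-1.27), Nrp1 (-1.11), Angpt1 (-1.06) and Hgf (-1.05) were lower. Angptl4, a lipoprotein lipase inhibitor, had 5.46 and 3.68 FPKM in PC-La against 19.9 and 21.8 in SePC-La. Without SePC-La replicate 1, 2 members were higher and 1 lower, and without PC-La replicate 1, 3 were higher and 2 lower. Vegfa and Angptl4 kept their calls without SePC-La replicate 1. None of 11 endothelial markers that passed the filter was called, with summed levels of 64.7 and 82.4 FPKM in PC-La against 76.9 and 71.2 in SePC-La.

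The MHC class II genes, by which macrophages, dendritic cells and B cells show peptides to CD4 T cells, were lower as a group. Of 8 genes, 7 were called lower, beside 2.68% of all genes, all 8 reached a limma adjusted p under 0.05, and all 8 had both SePC-La samples below both PC-La samples. The median was -1.62, and 7 were called with each of the 4 samples left out. H2-Aa, an α chain, had 141 and 175 FPKM in PC-La against 41.8 and 37.3 in SePC-La, with 50.8 and 15.2 in Laser, a log2 difference of -1.97 (SE 0.14, limma adjusted p = 0.0142). H2-Ab1, its β chain, had 209 and 241 FPKM in PC-La against 65.9 and 57.7 in SePC-La, with 78.4 and 17.5 in Laser, a log2 difference of -1.85 (SE 0.13, limma adjusted p = 0.0142). H2-Eb1, a further β chain, had 249 and 330 FPKM in PC-La against 75.8 and 57.9 in SePC-La, with 86.4 and 20 in Laser, a log2 difference of -2.10 (SE 0.19, limma adjusted p = 0.0198). In each of these genes PC-La was the highest of the 3 groups and SePC-La lay within the range of Laser. Cd74, the invariant chain that escorts class II molecules, had 475 and 599 FPKM in PC-La against 182 and 141 in SePC-La. Ciita, the master activator of class II transcription, had 3.60 and 5.71 FPKM in PC-La against 1.14 and 1.08 in SePC-La, a log2 difference of -1.40 (SE 0.21, limma adjusted p = 0.0371). The peptide-loading genes H2-DMa (-1.21) and H2-DMb1 (-1.52) were also lower, and Ctss, the protease that trims the invariant chain, was not called (-0.70, limma adjusted p = 0.0498). The MHC class I genes and the immunoproteasome held no call among 13 genes, with a median of -0.03.

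Class II promoters carry a Y box, bound by NF-Y, beside the X box through which CIITA is recruited. The 100 bases before the start of H2-Aa and H2-Eb1 are shown from RefSeq (GRCm38.p6), with the Y box letters CTGATTGG in capitals, a motif chosen after the values were seen.
H2-Aa, chr17:34287824-34287923, minus strand: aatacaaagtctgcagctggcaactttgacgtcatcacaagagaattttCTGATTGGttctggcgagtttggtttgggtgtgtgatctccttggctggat
H2-Eb1, chr17:34305767-34305866, plus strand: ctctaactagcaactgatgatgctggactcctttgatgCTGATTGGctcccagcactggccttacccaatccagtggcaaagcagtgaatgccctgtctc
The Y box began 51 bases before the start of H2-Aa and 62 before that of H2-Eb1. It was found, on either strand, in 2 of the 5 class II genes with a promoter in the table, in 6.5% of all tested genes with a promoter and in 4.46% of those called lower.

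Genes induced by interferons held few calls. Of 21 type I interferon-stimulated genes, 2 were called lower, beside 2.68% of all genes. In 14, both SePC-La samples were below both PC-La samples, beside 39.6% of all genes, and the list median was -0.51. Ifi44 had 11.6 and 9.76 FPKM in PC-La against 2.33 and 4.77 in SePC-La, with 5.04 and 0.758 in Laser, a log2 difference of -1.41 (SE 0.27, limma adjusted p = 0.0487), a call lost with the Laser samples in the fit. Ifit3 lost its call (-1.04) without SePC-La replicate 1 (-0.55) or without either PC-La sample. Isg15 did not follow, with 40.3 and 38.5 FPKM in PC-La against 36.9 and 45.8 in SePC-La. Of the 15 interferon-γ inducible GTPases, which attack vacuoles of intracellular microbes, 0 were called and 13 had SePC-La below PC-La without overlap, beside 39.6% of all genes, with a median of -0.46. Iigp1 had 72 and 93.8 FPKM in PC-La against 45.9 and 43.6 in SePC-La, with 29.1 and 43.3 in Laser. Gbp2 had 210 and 258 FPKM in PC-La against 276 and 237 in SePC-La, and its groups overlapped. These GTPases are near-identical copies in part, so their reads may have been split in counting. The interferon-stimulated response element, searched as GAAANNGAA on both strands, was found in 9 of 10 of the GTPase promoters and 9 of 17 type I promoters, against 7.75% of all tested genes with a promoter.

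**Figure D3:**
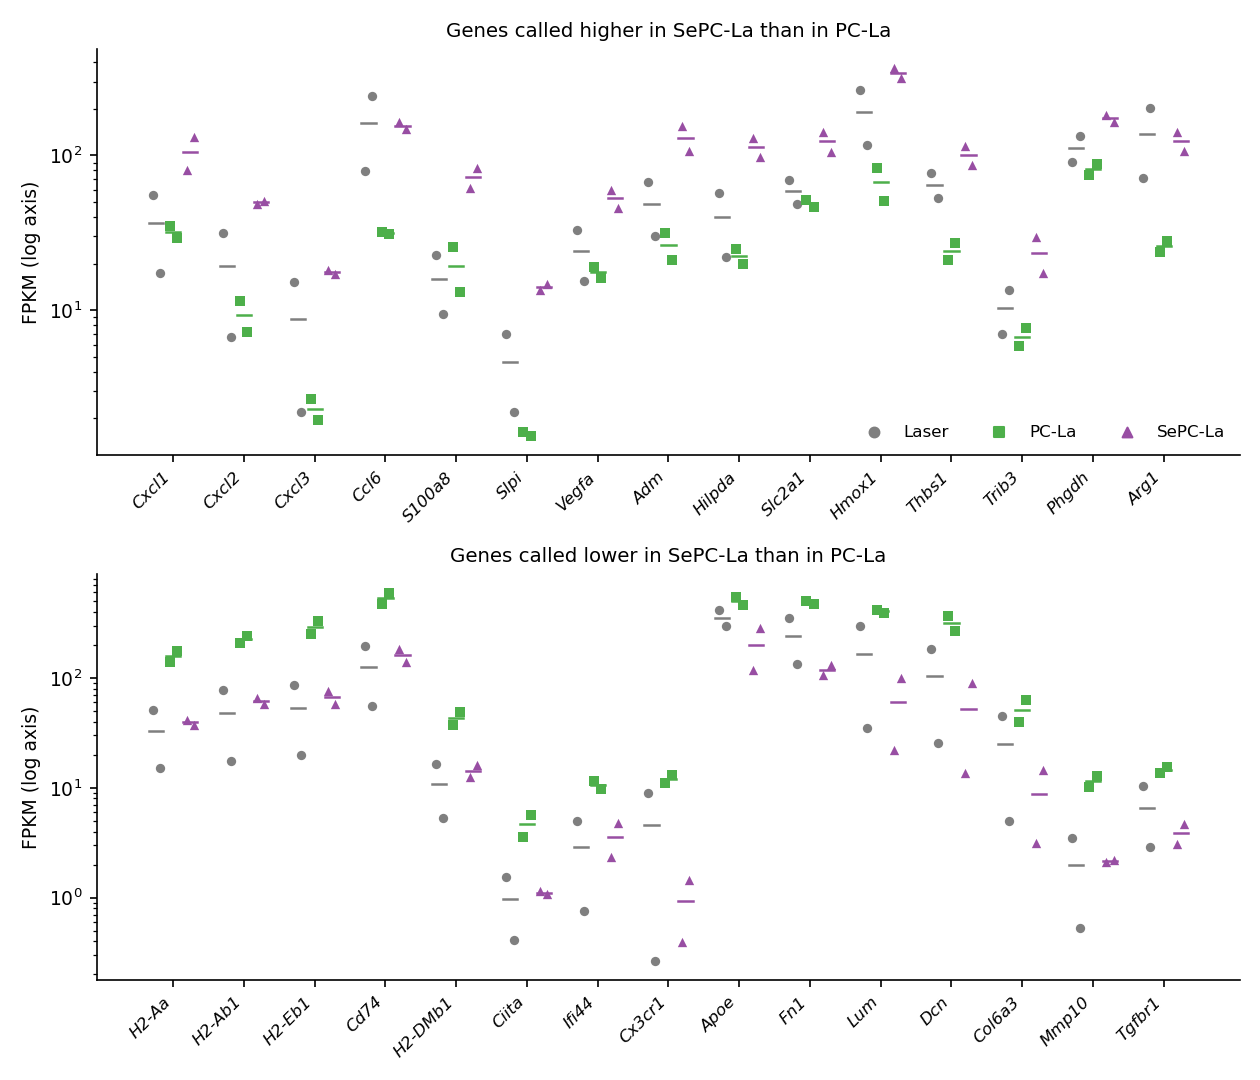
FPKM on a log axis in each of the 6 tumors for 15 genes called higher and 15 called lower in SePC-La; points are samples (circles Laser, squares PC-La, triangles SePC-La) and bars are group means of 2. SePC-La lies above PC-La throughout the upper panel (Cxcl3 18.3 and 17.2 against 2.65 and 1.95), and PC-La lies above SePC-La throughout the lower panel (Cd74 475 and 599 in PC-La). For Col6a3, Laser replicate 1 (45.2) exceeds PC-La replicate 1 (40.1). The SePC-La samples are close for H2-Aa but wide apart for Dcn.

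Fibroblast and matrix genes were among those with the lowest differences. Lum and Dcn encode lumican and decorin, proteoglycans that bind collagen fibrils. Lum had 415 and 392 FPKM in PC-La against 22 and 99.8 in SePC-La, with 298 and 34.9 in Laser, a log2 difference of -3.07 (SE 0.74, limma adjusted p = 0.0745). Dcn had 365 and 265 FPKM in PC-La against 13.6 and 90.7 in SePC-La, with 184 and 25.6 in Laser, a log2 difference of -3.09 (SE 0.94, limma adjusted p = 0.111). The SePC-La samples differed from each other by more than the PC-La samples did, and neither gene reached an adjusted p under 0.05. Both lost their call when either PC-La sample was left out, with unadjusted p between 0.142 and 0.259 from limma. Aspn, asporin of the same proteoglycan family, had 65.5 and 59.4 FPKM in PC-La against 0.323 and 10.2 in SePC-La, the lowest log2 difference of the called genes (-4.04, SE 1.12, limma adjusted p = 0.0997), and it lost its call when either PC-La sample was left out. Prg4, lubricin, had 28.3 and 21.6 FPKM in PC-La against 0.226 and 2.30 in SePC-La, with 16.1 and 0.874 in Laser, a log2 difference of -3.68 (SE 0.48, limma adjusted p = 0.0341). Fap, the protease of activated fibroblasts, had 5.68 and 5.64 FPKM in PC-La against 0.465 and 1.33 in SePC-La, a log2 difference of -1.85 (SE 0.24, limma adjusted p = 0.0298). Of 11 fibroblast and mural cell markers that passed the filter, 4 were called lower and 0 higher, beside 2.68% and 1.49% of all genes. The list median was -0.78. With 1 of the PC-La samples left out, 1 marker was called lower. The list summed to 1157 and 959 FPKM in PC-La, 89.8 and 346 in SePC-La, and 722 and 157 in Laser. The mural genes Acta2 (0.24), Pdgfrb (0.01) and Mcam (0.12) were not called.

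Fn1, fibronectin, had close values within each group. It had 500 and 472 FPKM in PC-La against 106 and 130 in SePC-La, with 351 and 134 in Laser, and its log2 difference was -2.04 (SE 0.13, limma adjusted p = 0.0104). Of 17 collagen genes, 6 were called lower, beside 2.68% of all genes, and 0 higher, with a median of -0.35, and 0 had an adjusted p under 0.05. Col6a1 had 151 and 125 FPKM in PC-La against 55.1 and 82.9 in SePC-La, and Col3a1 had 895 and 869 against 72.8 and 396. Col6a1 lost its call without PC-La replicate 1 (-0.88) or SePC-La replicate 1 (-0.72), and Col3a1 when either PC-La sample was left out. The basement membrane collagens Col4a1 (-0.05) and Col4a2 (-0.03) were not called, and Col1a1 had 12.1 and 13.4 FPKM in PC-La against 3.99 and 23.2 in SePC-La. Between 2 and 8 collagens were lower with a sample left out: 2 without PC-La replicate 1, 3 without PC-La replicate 2 or SePC-La replicate 1, and 8 without SePC-La replicate 2. The matrix metalloproteinases split. Mmp10, stromelysin 2, had 10.1 and 12.8 FPKM in PC-La against 2.13 and 2.20 in SePC-La, with 3.47 and 0.526 in Laser, a log2 difference of -1.97 (SE 0.15, limma adjusted p = 0.0142). Mmp14, the membrane-type protease, had 129 and 113 FPKM in PC-La against 47.3 and 60.9 in SePC-La (-1.16, or -0.98 and not called without SePC-La replicate 1). In contrast, Mmp8 and Mmp13, both collagenases, were higher, the latter with 4.79 and 11.5 FPKM in PC-La against 25.2 and 17.1 in SePC-La. The call of Mmp13 was lost without PC-La replicate 1 (0.80), SePC-La replicate 1 (1.09) or SePC-La replicate 2 (1.62). Of the transforming growth factor β genes, which drive matrix production, 3 of 16 were lower, beside 2.68% of all genes. Tgfbr1 had 13.7 and 15.4 FPKM in PC-La against 3.11 and 4.65 in SePC-La (-1.69, SE 0.18, limma adjusted p = 0.0253), and the ligand Tgfb3 had 21.4 and 20.4 against 5.89 and 8.23 (-1.46, SE 0.17, limma adjusted p = 0.0259). Tgfbr2 (-1.26) lost its call without SePC-La replicate 1 (-0.69) or without either PC-La sample.

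Macrophage identity genes were mixed. Cx3cr1, the fractalkine receptor of resident-type macrophages, had 11 and 13.2 FPKM in PC-La against 0.399 and 1.45 in SePC-La, with 8.97 and 0.264 in Laser, a log2 difference of -2.82 (SE 0.28, limma adjusted p = 0.0253). The SePC-La samples were both far below PC-La, and the Laser samples were 1 near PC-La and 1 below SePC-La. Of 16 markers, Cx3cr1, Apoe, C1qa and C1qc were called lower and Marco higher, beside 2.68% and 1.49% of all genes. The list median was -0.55. Apoe had 541 and 458 FPKM in PC-La against 118 and 285 in SePC-La, and the complement gene C1qa had 342 and 348 against 118 and 246. Without SePC-La replicate 1, Apoe was at -0.80, C1qa at -0.49 and C1qc at -0.52. A single marker was called lower without that sample or either PC-La sample, and 8 were without SePC-La replicate 2. The pan-macrophage genes Lyz2 (692 and 779 FPKM against 599 and 746) and Cd68 (55.8 and 57.3 against 61.9 and 79.4) were not called. Mertk, an efferocytosis receptor, had an adjusted p under 0.05 at -0.95. Outside the list, Cybb, the catalytic subunit of the phagocyte oxidase, had 21.7 and 24.3 FPKM in PC-La against 10.8 and 10.7 in SePC-La.

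Dendritic cell and lymphocyte genes held few calls. The dendritic cell list summed to 26.8 and 35.3 FPKM in PC-La against 15.5 and 18.5 in SePC-La, and Itgax, the integrin CD11c, was its only called gene, with 12.7 and 17.8 FPKM in PC-La against 7.31 and 5.2 in SePC-La (-1.16, limma adjusted p = 0.0475). It lost its call without PC-La replicate 2 (-0.93) or SePC-La replicate 2 (-0.95). Clec9a, a receptor of cross-presenting dendritic cells, had 9.48 and 9.11 FPKM in PC-La against 4.75 and 7.36 in SePC-La and was not called, and Batf3 and Ccr7 were not called either. The other 5 members, Xcr1, Flt3, Zbtb46, Siglech and Cd209a, reached 0.735 FPKM at most. No T cell gene was called, and the summed T cell list overlapped between the groups, at 18.2 and 15.3 FPKM in PC-La against 6.07 and 17.6 in SePC-La. Of 8 cytotoxic lymphocyte and NK cell genes 1 was lower, beside 2.68% of all genes. The summed list overlapped, at 97.2 and 62.6 FPKM in PC-La against 33.6 and 69.5 in SePC-La. The called gene, Klrb1b, a receptor of NK cells, had 5.57 and 5.88 FPKM in PC-La against 1.12 and 2.13 in SePC-La, a log2 difference of -1.38 (SE 0.21, limma adjusted p = 0.0388). In contrast, Tigit, an inhibitory receptor of T and NK cells, had 4.87 and 3.64 FPKM in PC-La against 16.6 and 10.8 in SePC-La, a log2 difference of 1.47 (SE 0.23, limma adjusted p = 0.0403).

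**Figure D4:**
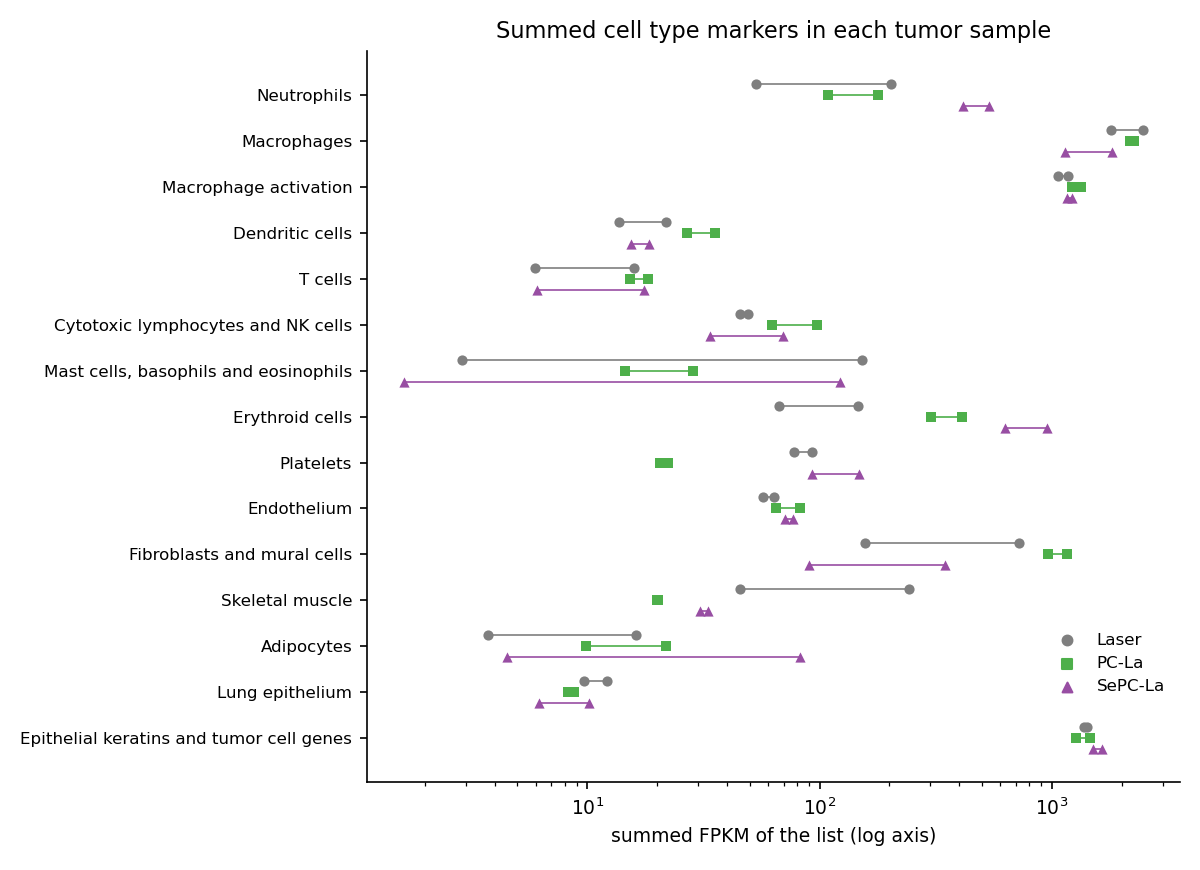
Summed FPKM of 15 cell type marker lists in each of the 6 tumors, on a log axis; lines join the 2 samples of a group. Neutrophil, erythroid and platelet sums of the SePC-La samples lie above both PC-La samples, the fibroblast sums (89.8 and 346 FPKM) lie below them (959 and 1157), and mast cell and adipocyte sums differ widely within SePC-La.

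The SePC-La samples also differed from each other in tissue markers. Mast cell and related granulocyte markers summed to 1.62 FPKM in SePC-La replicate 1 and 123 in replicate 2, with 28.6 and 14.5 in PC-La and 153 and 2.89 in Laser. Adipocyte markers summed to 4.52 and 82.3 FPKM in SePC-La and 9.90 and 21.9 in PC-La. In SePC-La replicate 1 the fibroblast, mast cell and adipocyte sums were all the lowest of the 4 samples. Skeletal muscle markers were at most 33.2 FPKM in the 4 samples, and keratinocyte markers at most 1.48. Epithelial keratin and tumor cell genes held no call, with sums of 1461 and 1270 FPKM in PC-La against 1502 and 1643 in SePC-La. The part of the sampled tissue in the matrix and macrophage decreases was not tested.

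Selenoprotein genes were examined because the photosensitizers differ in selenium, though not in selenium alone. Of 24, 19 passed the filter, and Gpx2, Dio1 and Selenov were at 0 in all 4 samples. None of the 19 was called, and the median was -0.00. By limma 4 had an interval of the difference that excluded 0, Txnrd1, Selenoh and Gpx4 above and Selenom below. Txnrd1, thioredoxin reductase 1, had 32.1 and 37.7 FPKM in PC-La against 58.4 and 51.8 in SePC-La, with 37.7 and 51.7 in Laser, a log2 difference of 0.65 (95% interval 0.32 to 0.97, limma adjusted p = 0.0505). Selenoh, a nucleolar redox protein, had 58.8 and 57.4 FPKM in PC-La against 88.1 and 86.3 in SePC-La, with 60.4 and 74.2 in Laser. Its log2 difference was 0.58 (95% interval 0.33 to 0.83), and it was the single member with an adjusted p under 0.05 (0.0435 from limma). Selenom, a protein of the endoplasmic reticulum, had 36.2 and 37.2 FPKM in PC-La against 18.6 and 26.2 in SePC-La (-0.70, 95% interval -1.14 to -0.27).

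None of the glutathione peroxidases, the best-known selenium enzymes, was called. Gpx1, the cytosolic enzyme, had 217 and 230 FPKM in PC-La against 201 and 246 in SePC-La, with 208 and 232 in Laser, and the interval of its log2 difference ran from -0.33 to 0.33. Gpx4, which removes lipid peroxides, had 125 and 116 FPKM in PC-La against 149 and 157 in SePC-La (0.34, 95% interval 0.08 to 0.61). For Gpx1 the samples of the groups interleaved, and for Gpx4 SePC-La was above PC-La in both samples. Selenop, the selenium carrier of plasma, could not be placed, with 44.6 and 33 FPKM in PC-La, 11.3 in SePC-La replicate 1 and 49.4 in replicate 2, and an interval from -2.61 to 1.28. Without SePC-La replicate 2 Selenop passed the criterion at -1.68, and without SePC-La replicate 1 Gpx3 did at 1.46. The 10 genes of selenocysteine synthesis and selenium uptake that passed the filter held no call, with a median of -0.00. Scly, which releases selenium from selenocysteine, had 4.84 and 4.73 FPKM in PC-La against 1.90 and 3.02 in SePC-La, and Sars, the seryl-tRNA synthetase, had 28.5 and 31.6 against 64 and 41.6.

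**Figure D5:**
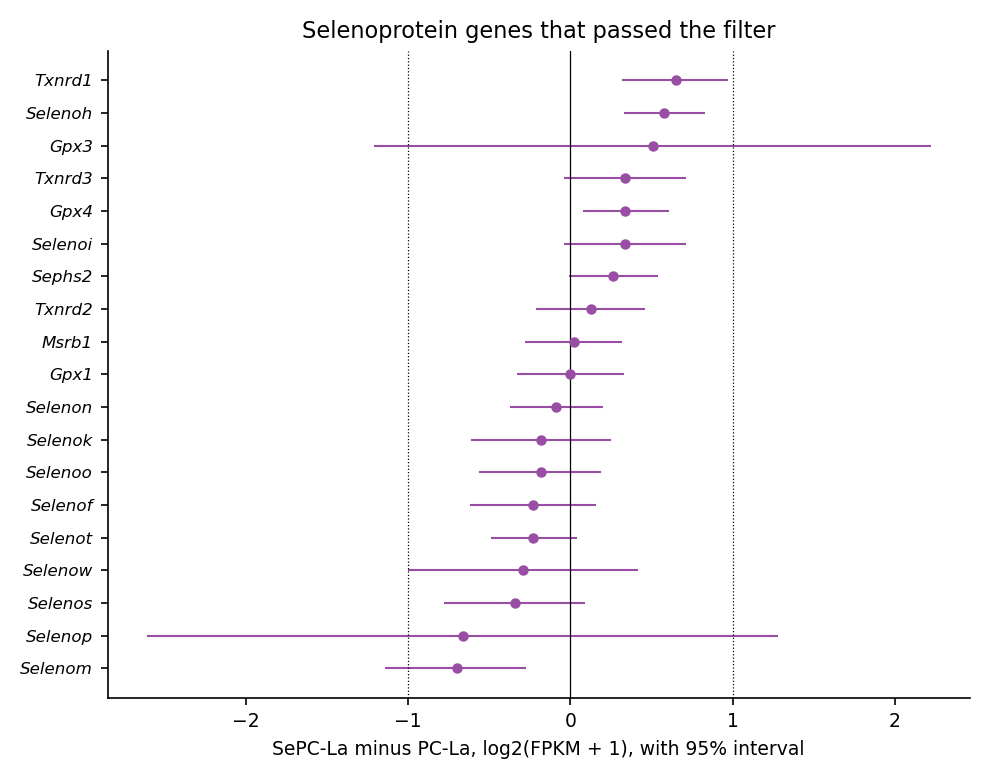
Log2 difference, SePC-La minus PC-La, of the 19 selenoprotein genes that passed the filter, with limma's 95% intervals from 2 samples in each group. The differences run from -0.70 (Selenom) to 0.65 (Txnrd1), none beyond the dotted lines at 1, and the intervals of Gpx3 and Selenop are the widest.

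Several large gene groups held no call. Of 74 cytosolic ribosomal protein genes, 71 had both SePC-La samples above both PC-La samples, beside 26.0% of all genes, with a median of 0.40 and 11 at an adjusted p under 0.05 from limma. Rps2 had 1433 and 1371 FPKM in PC-La against 2546 and 2225 in SePC-La, with a log2 difference of 0.76. Their median exon length was 1835 bases, against 4448 for all tested genes, and with quantile normalization their median was 0.17. Of 33 cell cycle and replication genes, 25 were above without overlap, beside 26.0% of all genes, with a median of 0.28, and 0 were called. Mcm7, a replicative helicase subunit, had 37.9 and 39.9 FPKM in PC-La against 70 and 56.5 in SePC-La. None of the 11 caspases and gasdermins, 21 autophagy genes, 23 cholesterol synthesis genes or 31 proteasome subunits was called, with medians of -0.21, -0.19, -0.16 and 0.19. Of 16 p53 targets 3 were lower, beside 2.68% of all genes. Ccng1 had 86.7 and 79.4 FPKM in PC-La against 18.7 and 39.2 in SePC-La (-1.58), and Eda2r 5.38 and 5.67 against 0.764 and 1.73 (-1.57, SE 0.23, limma adjusted p = 0.0351). In this list 9 genes had SePC-La below PC-La without overlap and 3 above, beside 39.6% and 26.0% of all genes, with a median of -0.28.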

How the data were processed

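RNA from tumors was sequenced on an Illumina instrument. The authors deposited 1 table of normalized values per gene and sample, which the values show to be FPKM made by the authors from aligned and counted reads, although the table does not name its unit. Multiplied by exon lengths of GENCODE M21 (GRCm38), between 98.00% and 98.21% of the values above 0 in a sample were whole reads (tolerance 0.05), with 1 total per sample. The submitters' processing notes list HISAT2 2.0.5, HTSeq 0.9.1, DESeq 1.30.0 and the build mm9, and the annotation is not given in the sources used here. Of the 21899 genes listed, 53 had no exon length and 5469 were at 0 in the 4 samples. Values were used as deposited, without further scaling.

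The 2 SePC-La and 2 PC-La samples were fitted by limma (version 3.58.1, R 4.3.3), on log2(FPKM + 1) and for genes whose mean reached 1 FPKM, with trend and robust empirical Bayes (median total degrees of freedom 5.55). This scale understates fold changes of low genes. P-values are two-sided, with Benjamini-Hochberg adjustment over all tested genes. Depth gives counting precision only, and 2 samples per group limit every interval.

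Gene lists and comparisons were chosen with earlier results of these data known, and list counts are descriptions without a set test. Genes named by rule were the 12 highest and 12 lowest differences among called genes whose higher group averaged 5 FPKM or more, the called members of each list (at most the 6 with the smallest p in each direction), up to 4 of the most expressed members of a list with no call, the 6 genes with the smallest p in each direction, the genes named in the study's transcriptome results and the selenoproteins that passed the filter. Any other gene named was chosen after its values were seen, and some genes that the rule covers are not reported here. Promoters were those of RefSeq, present for 8696 of 10830 tested symbols. The fit was tested on simulated data. Alternatives were another pseudocount, filters, scalings, moderation settings, all 6 samples in the fit, a replicate block, voom on the recovered reads, and each sample left out. Python 3.11.15 with pandas 2.3.3 and NumPy 2.4.6 served for tables, and matplotlib 3.10.9 for plots.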

Additional observations from a re-analysis of the deposited data

How the results depend on the processing

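The calls between SePC-La and PC-La depended on which sample was kept and on the handling of low genes. The count of 451 genes was 274 (159 lower) with a minimum mean of 5 FPKM, 705 (480 lower) with a pseudocount of 0.1 and 736 (522 lower) with voom on the recovered reads. With a sample left out it ran from 305 to 801, with 145 to 208 higher and 141 to 593 lower, the fewest lower without SePC-La replicate 1 and the most without SePC-La replicate 2; a lone sample is then assumed to vary like the other group. Median-ratio scaling, quantile normalization, no filter, no trend, no robust estimation and all 6 samples in the fit kept the total within 1.5 times. Of the 671 genes at an adjusted p under 0.05, the count became 0 with all 6 samples in the fit, 390 with a minimum mean of 5 FPKM, 4 without the filter, 342 with a pseudocount of 0.1, 1448 with voom and 0 to 4243 with a sample left out. Where it was 0, 2654 (all 6 samples) and 1669 (without PC-La replicate 2) genes had an unadjusted p under 0.05. With the replicate block it was 333, and 157 genes were called higher and 283 lower. The labels give no shared source for equal replicate numbers, and the deviations of the first replicates correlated at -0.176, so the crossed pairing was added after seeing the data and gave 159 higher, 298 lower and 1321 at an adjusted p under 0.05. Of the 132 named genes that were called, 66 kept their call in every setting in which they were tested, and none changed direction. With a minimum mean of 5 FPKM, 125 of the 155 named genes were tested. The medians of 3 lists with few or no calls changed sign, to -0.01 for mitochondrially encoded respiratory genes without SePC-La replicate 2 (range -0.01 to 0.24 with a sample left out), to -0.09 for histones with a minimum mean of 5 FPKM, and to -0.0 for epithelial and tumor cell genes without the filter. Low genes and the 2 samples per group limit what can be seen, and differences under a log2 of 1 were not called.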

Other observations

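Several genes outside the lists also differed between SePC-La and PC-La. Except for Hcar2, which was named by rule, they were chosen after their values were seen. Mif, a macrophage cytokine, had 337 and 353 FPKM in PC-La against 1013 and 751 in SePC-La, with 434 and 593 in Laser, a log2 difference of 1.34 (SE 0.16, limma adjusted p = 0.0284). Lgals3, galectin 3, had 151 and 137 FPKM in PC-La against 419 and 367 in SePC-La, with 195 and 425 in Laser, a log2 difference of 1.44 (SE 0.12, limma adjusted p = 0.0173). Steap1, a metalloreductase, had 16.2 and 21.1 FPKM in PC-La against 60.5 and 58.4 in SePC-La, and Ackr3, a scavenging receptor of the chemokine CXCL12, had 3.40 and 2.89 against 17.5 and 12.8. For each of these genes the SePC-La samples lay above both PC-La samples. Hcar2, the receptor for ketone body and niacin signals on myeloid cells, had 5.40 and 4.95 FPKM in PC-La against 37.5 and 27 in SePC-La, with 18.6 and 1.2 in Laser, and lost its call with the Laser samples in the fit.

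Among the lower genes, Nfat5, the transcription factor of the osmotic stress response, had 23.4 and 22.3 FPKM in PC-La against 10.8 and 10.7 in SePC-La, a log2 difference of -1.02 (SE 0.11, limma adjusted p = 0.0253). Cd83 (10.1 and 10.5 against 2.56 and 3.83 FPKM), Cd72 (12.3 and 13.9 against 2.99 and 5.00) and Ly86 (11 and 12.5 against 2.46 and 4.51) encode surface proteins of antigen-presenting cells and were lower in both SePC-La samples than in either PC-La sample. Cdon, a cell surface receptor of the hedgehog pathway, had 17.1 and 18.3 FPKM in PC-La against 1.48 and 4.27 in SePC-La, with 14.4 and 1.97 in Laser.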
